A study of Mus musculus with 4 samples.

Results

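Laminins and nidogen are the proteins from which a basement membrane is built, and 10 of their genes were followed here among 32285 genes in the count matrices: the α chain genes Lama1, Lama2, Lama4 and Lama5, the β chain genes Lamb1, Lamb2 and Lamb3, the γ chain genes Lamc1 and Lamc3, and Nid1. The genes were chosen by name, with earlier results of these data known. The single-cell RNA-seq data came from 2 libraries of testicular organoids (TOs) and 2 libraries of mouse testes. TOs were built from the dissociated cells of immature ICR mouse testes, which formed spheroids in microwells, were embedded in a basement membrane extract and were later taken out of it. The design text gives an age of 28 days for TOs and testes alike, whereas the extraction protocol speaks of TOs at day 21. For TOs these are days of culture of cells taken from pups, and for testes the age of the mice. The groups were thus not matched by age. No gene was altered and no cell type was sorted in any group. By the study's description the TO libraries were of independent batches and the testis libraries were biological replicates, while the labels give only replicate numbers.

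A laminin is a trimer of an α, a β and a γ chain. Laminin trimers bind one another into a sheet on the cell surface, where integrins and dystroglycan hold them, and nidogen ties that sheet to the network of collagen IV. In the testis a basement membrane surrounds each seminiferous tubule, with Sertoli cells and spermatogonia on its inner side and peritubular myoid cells on its outer side, and other basement membranes lie around blood vessels.

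After filtering, 8713 to 9866 cells per library were kept. The median number of unique molecular identifiers (UMIs, 1 per captured RNA molecule) per cell was 5482 and 7548 in the TO libraries and 2550 and 3267 in the testis libraries, and pairs of libraries shared 30 to 55 barcodes. Raw UMIs were added up over the cells of a type in each library, and levels are given in CPM, the UMIs of a gene per 1000000 UMIs of that sum. Sums held 391 to 1537 Sertoli cells, 435 to 2554 myoid cells and 410 to 3096 stromal cells. Intervals given with levels are exact 95% Poisson intervals and cover counting error only. Because fewer cells of a kind within a sum and less RNA per cell change a sum in the same way, they cannot be told apart from the sums alone.

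The names of the cell types were compared with their markers. Of 8 Sertoli markers, 7 were found in at least 10% of the Sertoli cells of every library, and 7 of 7 myoid markers in those of the myoid cells. In stromal cells, 6 of 7 markers reached that share in 3 libraries and 7 of 7 in the other. The cluster with the name of endothelial cells differed in its markers between TOs and testes. In testes all 8 endothelial markers were found in at least 10% of its cells, with a summed level of 3619 and 3006 CPM. In TOs 2 of the 8 reached that share, with a summed level of 257 and 135 CPM. These were Kdr, in 50.8% and 43.8% of TO cells against 71.4% and 65.9% of testis cells, and Egfl7, in 11.1% and 10% against 86.5% and 85.2%. Pecam1 had UMIs in 69.2% and 68.2% of testis cells and in 0 of 63 and 0 of 80 TO cells. These counts of 0 leave room for a share with UMIs of 4.76% and 3.75%, and set no limit on how many cells express the gene. Of 8 Sertoli markers, 6 and 5 were found in at least 10% of the TO cells and 1 in the testis cells of each library. Pax8, of the marker list of rete testis and mesothelium, was found in 76.2% and 91.2% of TO cells and in 0 of 133 and 0 of 88 testis cells. Krt18 of that list was found in 39.7% and 23.8% of TO cells. Its other markers, Krt19, Krt7, Upk3b and Msln, were each in at most 4.76% of the TO cells of a library. As fewer than 3 endothelial markers reached 10% of cells in the TO libraries, the members are described in that cluster without a test.

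Testis sums also held RNA of spermatids, the haploid germ cells. The summed level of 9 spermatid markers was 0.557 to 3.85 CPM in the TO sums of Sertoli, myoid and stromal cells and 2963 to 8369 CPM in the testis sums, in which all 9 had UMIs. Tnp1 and Prm2 were at 0 in the Sertoli sums of both TO libraries. Within the Sertoli class, the testis cells of 2 clusters showed 5 or fewer of the 8 Sertoli markers, with a median of 1758 to 2084 UMIs per cell. Without them 324 of 595 and 121 of 391 testis Sertoli cells were left. Of those left, 305 and 112 lay in a cluster with 0 TO cells. Of the TO Sertoli cells, 1302 and 593 lay in a cluster whose testis cells were all left out. TOs and testes were thus compared largely across different clusters. The tested members are also given for these Sertoli cells. In these cells, from clusters with 6 or more of the 8 markers in the library, edgeR called 0 members, beside 6.52% of 12035 genes higher and 11.3% lower, and 2 of those tested, Lama1 and Lamc1, had an unadjusted p below 0.05. The part of this germ cell RNA in the results was not tested. In an alternative, a background was subtracted from the testis sums. Its size was set by 4 spermatid genes, and its profile was that of all kept cells of the library, somatic cells included. It took 33.5%, 52.3% and 54.4% of the Sertoli, myoid and stromal sums of testis 1. Of those of testis 2 it took 11.85%, 9.11% and 9.19%.

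The plot of levels by library gives all 10 members in the 3 tested cell types. Lama1 was the member with the most UMIs in Sertoli cells, at 151 and 159 CPM in TOs and 192 and 152 CPM in testes. Lama2 held that place in myoid and stromal cells of every library. Levels of different genes are set side by side only as UMIs, since each captured transcript gives 1 tag whatever its length.

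**Figure D1:**
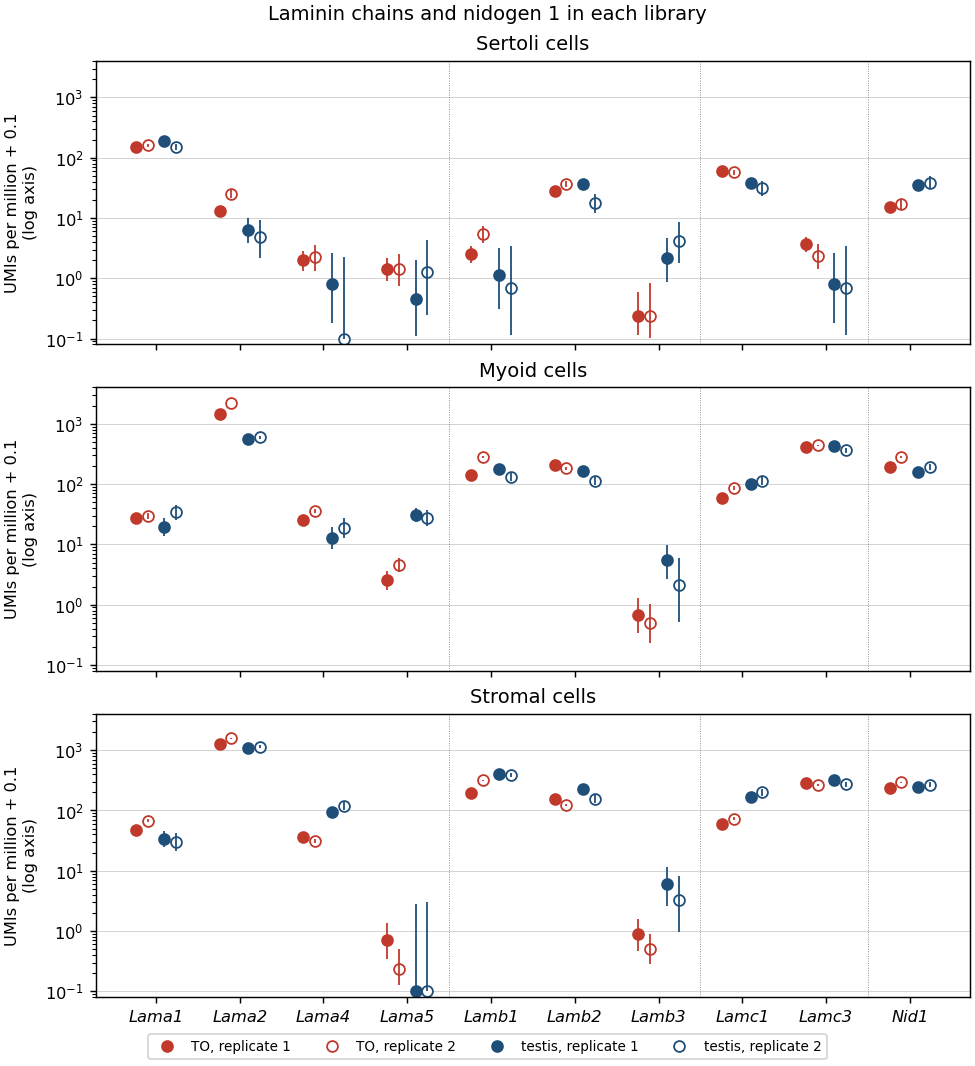
Level (CPM plus 0.1, log axis) of each member in Sertoli, myoid and stromal cells, 1 point per library, with bars for exact 95% Poisson intervals and dotted lines between α, β and γ chains and nidogen. In myoid cells the TO points of Lama2 lie at 1450 and 2207 above testis points of 567 and 596, and those of Lama5 lie at 2.49 and 4.48 below testis points of 30.9 and 27.7.

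The comparison of TOs with testes was made with edgeR's quasi-likelihood test on the sums, adjusted by the Benjamini-Hochberg method over all genes tested, and a gene was called at an adjusted p below 0.01 with a log2 fold change beyond 1 in either direction. In Sertoli cells 8 members passed the filter on low counts, 4 of these were left out because other cells of a condition held at least 5 times their level, and of the 4 tested 0 were called higher and 1, Lamb3, was called lower. Of all 12840 genes tested there, 9.66% were called higher and 19.2% lower. In myoid cells all 10 members were tested, of which 1, Lama2, was called higher and 1, Lama5, lower, beside 4.08% and 16.7% of 14336 genes. In stromal cells 9 were tested, of which 0 were called higher and 2, Lama4 and Lamc1, lower, beside 1.97% and 15.2% of 14077 genes. With so few members called, these counts give no result about the list, and Lamb3 passed the filter on low counts only through its testis libraries. Their median log2 fold change was 0.07 in Sertoli, 0.29 in myoid and -0.41 in stromal cells, and that of all genes tested was 0.08, 0.11 and 0.05.

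**Figure D2:**
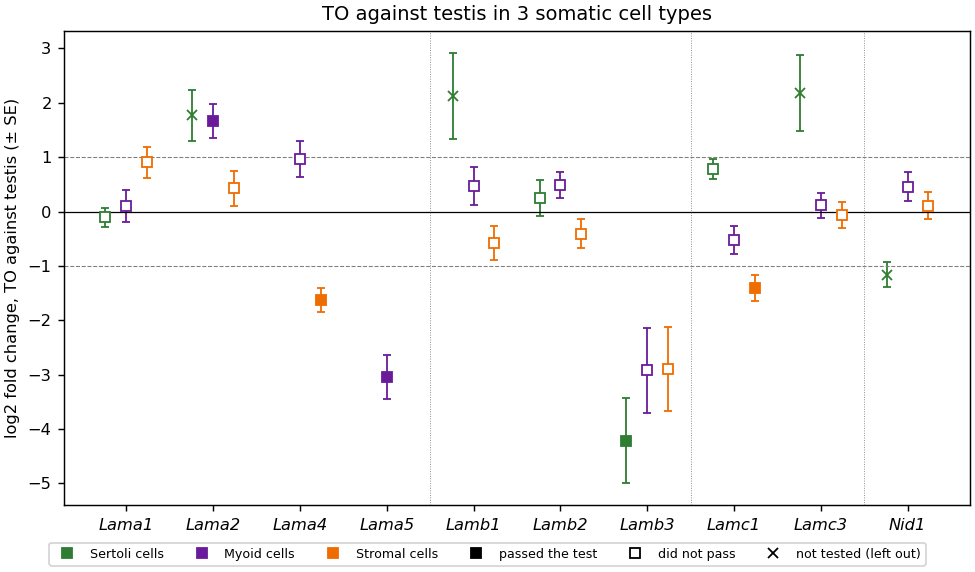
Log2 fold change of TO against testis (± SE derived from edgeR's F statistic, 2 libraries a group) for each member in Sertoli, myoid and stromal cells. Filled squares passed the test, open squares did not, crosses were left out before the test, and the dashed lines mark the fold threshold of 1. The 5 filled squares are Lama2 and Lama5 in myoid cells, Lama4 and Lamc1 in stromal cells and Lamb3 in Sertoli cells. Lamb3 passed the filter on low counts only through its testis libraries.

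Lama1 codes for the α1 chain, found in embryonic basement membranes and in that of the seminiferous tubule. In Sertoli cells its log2 fold change was -0.11 ± 0.18 (SE, adjusted p = 0.64), and the TO and testis libraries overlapped. Without the Sertoli cells of few markers the testis levels were 241 and 237 CPM, both above the TO libraries, and the log2 fold change was -0.48 (adjusted p = 0.0505). Lama1 had 26.8 and 29.5 CPM in TO myoid cells and 19.7 and 33.8 CPM in those of testes, again with overlap. Stromal cells had 47.9 and 67.6 CPM in TOs against 34.0 and 30.3 CPM in testes, a log2 fold change of 0.91 ± 0.28 that did not pass the test (adjusted p = 0.0506).

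Lama2 codes for the α2 chain, the main α chain of skeletal muscle laminin and the one lost in a congenital muscular dystrophy. It lies on chromosome 10 (chr10:26980036-27619758, minus strand, GRCm38). Myoid cells had 1450 and 2207 CPM in TOs and 567 and 596 CPM in testes. The groups did not overlap, and Lama2 rose by a log2 fold change of 1.67 ± 0.31 (adjusted p = 0.00396, n = 2 and 2). After each cell was thinned to 1500 UMIs, Lama2 was found in 81.2% and 90.3% of TO myoid cells and 48.8% and 51.0% of testis myoid cells, and without thinning in 96.9% and 98.8% against 62.1% and 70.1%. The call was lost without testis replicate 1 (adjusted p = 0.103) and without testis replicate 2 (adjusted p = 0.0923), where a single testis library is assumed to vary like the rest, with log2 fold changes of 1.64 and 1.66. It was also lost when the background was subtracted, with a log2 fold change of 1.035 (adjusted p = 0.332). Without testis replicate 1 edgeR called 4 of 14798 genes higher in myoid cells, with 1708 at an unadjusted p below 0.05.

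The summed level of 7 stromal markers moved with Lama2 in the same sums, at 3596 and 4488 CPM in TO myoid cells and 1344 and 1610 CPM in testis myoid cells, where Lum and Dpt were at 0 in 1 library. Their part in the change of Lama2 was not tested. Without Harmony, the step that joined the libraries, the myoid class held 2134 and 1108 TO cells in place of 2554 and 1855. The stromal class then held 3103 and 3802 TO cells in place of 2724 and 3096. Testis myoid cells numbered 694 and 432 in place of 696 and 435. The Lama2 call in myoid cells was kept under that setting. In stromal cells themselves Lama2 had 1279 and 1570 CPM in TOs and 1073 and 1137 CPM in testes. The groups did not overlap there, but the log2 fold change of 0.43 ± 0.32 did not pass the test (adjusted p = 0.370). In Sertoli cells Lama2 had 12.8 and 24.8 CPM in TOs and 6.28 and 4.73 CPM in testes, and it was left out of the test because other cells held over 5 times as much.

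Lama4 codes for the α4 chain, best known from the basement membranes of blood vessels, and lies at chr10:38965515-39110188 on the plus strand. Stromal cells had 36.0 and 31.1 CPM in TOs and 95.4 and 120 CPM in testes. The groups were far apart, and Lama4 fell by 1.63 ± 0.22 on the log2 scale (adjusted p = 0.00117). This call was kept in 18 of 19 alternative analyses, with log2 fold changes from -2.15 to -1.43. Some of the 19 could not have lost it. The largest cluster held 100% of stromal cells and repeated the main test, and looser thresholds could only keep a call. At the other resolutions TO 2 had 3097 stromal cells in place of 3096. The Lama4 call was lost when the background was subtracted (adjusted p = 0.12, log2 fold change -2.14). Under that setting edgeR called 0 of 13024 genes, with 714 higher and 1127 lower at an unadjusted p below 0.05. In myoid cells the order was the other way, with 25.3 and 35.7 CPM in TOs and 12.8 and 18.9 CPM in testes, but the log2 fold change of 0.97 ± 0.33 did not pass (adjusted p = 0.0514). Sertoli cells held 27, 16, 2 and 0 Lama4 UMIs in TO 1, TO 2, testis 1 and testis 2, and the gene was not tested there.

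Lama5 codes for the α5 chain, a widespread laminin chain of epithelia and of mature blood vessels, and lies at chr2:180176373-180225859 on the minus strand. TO myoid cells had 2.49 CPM (interval 1.68 to 3.56) and 4.48 CPM (3.39 to 5.80), from 30 and 57 UMIs. Testis myoid cells had 30.9 CPM (23.5 to 39.9) and 27.7 CPM (19.9 to 37.6), from 58 and 41 UMIs. The groups were separate, and Lama5 fell by 3.05 ± 0.40 on the log2 scale (adjusted p = 0.000624). The call was lost without testis replicate 1 and without testis replicate 2, with log2 fold changes of -2.96 and -3.16. It was also lost with the background subtracted (-3.72, adjusted p = 0.0988). In stromal cells Lama5 had 7 and 3 UMIs in TOs and 0 in both testis libraries, which allows up to 2.73 and 2.94 CPM, so no difference was detectable at this depth. In Sertoli cells it had 19, 10, 1 and 2 UMIs and was not tested.

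For Lama2 and Lama5, the 2 members called in myoid cells, the 250 bases before their RefSeq starts are shown as a description of sequence. These bases were taken from a set of RefSeq promoters on GRCm38.p6, in which 6 of the 10 members were matched. They lie at chr10:27616943-27617192 for Lama2 and chr2:180225860-180226109 for Lama5, both on the minus strand and written 5′ to 3′. The Lama2 stretch lies inside the gene span given above, and the Lama5 stretch directly before that of its gene. The 2 stretches are thus not placed alike. Capitals mark the GC box GGGCGG or its reverse complement CCGCCC, counted at every start position, so that matches could overlap.
Lama2: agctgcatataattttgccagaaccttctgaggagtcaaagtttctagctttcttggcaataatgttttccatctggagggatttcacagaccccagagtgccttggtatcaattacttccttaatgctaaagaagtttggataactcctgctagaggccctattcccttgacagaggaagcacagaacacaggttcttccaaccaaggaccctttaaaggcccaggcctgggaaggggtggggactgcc
Lama5: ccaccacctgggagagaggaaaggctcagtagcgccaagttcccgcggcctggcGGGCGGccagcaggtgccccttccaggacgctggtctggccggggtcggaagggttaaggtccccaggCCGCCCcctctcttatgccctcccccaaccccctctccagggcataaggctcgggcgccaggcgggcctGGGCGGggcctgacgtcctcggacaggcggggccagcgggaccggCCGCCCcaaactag
The Lama2 stretch was 47.2% G and C and held 0 GC boxes, and the Lama5 stretch was 72.4% G and C and held 4. Among 32851 promoters of that length the median was 52.4%, 32.7% held at least 1 GC box and 4.09% held 4 or more. Of the other matched members, Lamb1 held 2 GC boxes, Nid1 held 1, and Lamb2 and Lamb3 held 0. These matches describe the sequence and show no binding, and their relation to the levels of the genes was not tested.

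Myoid cells fell into 2 clusters, and the split bears on both called members. The larger was led by Acta2, Tnnt2 and Myh11, genes of contractile cells, and held 2509, 1797, 484 and 292 cells of TO 1, TO 2, testis 1 and testis 2. The smaller was led by Rgs5, known from the mural cells of vessels, Mustn1 and Tagln, a gene of contractile cells, and held 45, 58, 212 and 143 cells. The larger cluster made up 98.2% and 96.9% of TO myoid cells and 69.5% and 67.1% of testis myoid cells. Within the smaller cluster Rgs5 was found in 2.22% and 6.90% of TO cells and in 65.6% and 65.7% of testis cells.

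Lama5 in testes came from the smaller cluster, where testis cells had 99.6 and 84.6 CPM (57 and 39 UMIs) and TO cells 2.87 and 8.99 CPM (1 and 5 UMIs). In the larger cluster it had 2.48 and 4.27 CPM in TOs (29 and 52 UMIs) and 0.766 and 1.97 CPM in testes (1 and 2 UMIs). The direction was thus turned in the larger cluster, with a log2 fold change of 1.34 ± 0.88 that did not pass (adjusted p = 0.283), whereas the smaller cluster alone gave -3.78 ± 0.51 (adjusted p = 0.000118). The lower Lama5 level of TOs was thus measured in the smaller cluster, of which testis myoid cells held the larger share, and not in the larger one. In the smaller cluster Lama5 passed the filter on low counts only through testes. As the TO and testis cells of that cluster differed in Rgs5, these values do not compare 1 cell type.

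Lama2 differed in the same direction in both clusters. The larger had 1472 and 2265 CPM in TOs against 743 and 771 CPM in testes, a log2 fold change of 1.28 ± 0.32 that missed the threshold (adjusted p = 0.0155). The smaller had 733 and 930 CPM against 166 and 210 CPM, where Lama2 rose by 2.13 ± 0.31 (adjusted p = 0.000208). In the larger cluster edgeR called 0 of 10 members, beside 3.33% of genes higher and 15.3% lower, and 3 members, Lama2, Lama4 and Lamb3, had an unadjusted p below 0.05.

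In the smaller cluster 4 of the 8 members tested were called. Besides Lama2 and Lama5, Lamb1 had 167 and 268 CPM in TOs and 54.2 and 60.7 CPM in testes and rose by 1.92 ± 0.33 (adjusted p = 0.000695). Lamc3 had 164 and 176 CPM against 55.9 and 30.4 CPM and rose by 1.93 ± 0.34 (adjusted p = 0.000871). The background was 7.24% of 8105 genes called higher and 13.7% lower. This split was chosen after the values were seen, and the TO sums rest on 45 and 58 cells of which few had Rgs5 UMIs.

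**Figure D3:**
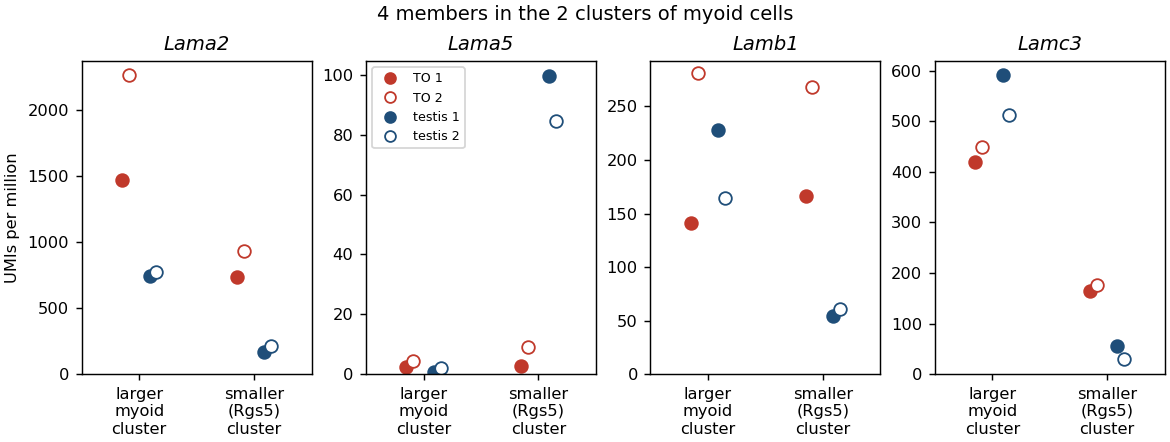
Level (CPM) of Lama2, Lama5, Lamb1 and Lamc3, the members called in the smaller cluster, in the larger (Acta2, Tnnt2, Myh11) and the smaller (Rgs5, Mustn1, Tagln) myoid cluster, 1 point per library. Lama5 in testes was 0.766 and 1.97 in the larger cluster and 99.6 and 84.6 in the smaller one.

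Lamb1 and Lamb2 code for the β1 and β2 chains, the β chains of most laminins, of which β2 is known from the neuromuscular junction and the kidney glomerulus. Lamb1 had 142 and 280 CPM in TO myoid cells and 175 and 132 CPM in testis myoid cells, so the groups overlapped (log2 fold change 0.47 ± 0.35, adjusted p = 0.325). In stromal cells it had 197 and 315 CPM in TOs, both below the 408 and 389 CPM of testes, without passing the test (-0.57 ± 0.31, adjusted p = 0.217). Lamb2 had 207 and 182 CPM in TO myoid cells and 162 and 114 CPM in testis myoid cells, which did not overlap but did not pass either (0.49 ± 0.24, adjusted p = 0.155). In stromal cells its 156 and 123 CPM in TOs and 226 and 155 CPM in testes overlapped (-0.41 ± 0.26, adjusted p = 0.292). In Sertoli cells Lamb2 was the main β chain gene by UMIs, with 28.0 and 36.3 CPM in TOs and 36.3 and 17.7 CPM in testes (0.25 ± 0.33, adjusted p = 0.560). Lamb1 had only 35, 39, 3 and 1 UMIs there and was left out of the test.

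Lamb3 codes for the β3 chain of laminin-332, the laminin that anchors the epidermis. Sertoli cells had 2 and 1 Lamb3 UMIs in TOs (0.139 and 0.135 CPM) and 6 and 7 in testes (2.09 and 4.14 CPM). On these few UMIs Lamb3 fell by 4.22 ± 0.78 on the log2 scale (adjusted p = 0.00366), and the call was lost without any 1 of the 4 libraries. Myoid cells had 0.582 and 0.393 CPM in TOs and 5.33 and 2.03 CPM in testes (-2.92 ± 0.79, adjusted p = 0.0214), and stromal cells had 0.80 and 0.41 CPM against 5.91 and 3.19 CPM (-2.90 ± 0.77, adjusted p = 0.0272). Neither passed the test, and in each type both TO libraries lay below both testis libraries. In each type Lamb3 passed the filter on low counts only through the testis libraries, where it was higher. The Lamb3 values are therefore given as a description, and the call is no separate evidence of a fall.

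Spermatids of the testes had more Lamb3 than any of these sums, at 9.43 and 10.8 CPM from 234 and 314 UMIs. Without the Sertoli cells of few markers, testis Sertoli cells had 0.898 and 0.934 Lamb3 CPM and the gene no longer entered the test. Lamb3 thus moved with the spermatid markers given above, and their part was not tested further.

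Lamc1 codes for the γ1 chain, the γ chain of most laminins, and lies at chr1:153218922-153332786 on the minus strand. Stromal cells had 59.2 and 73.2 CPM in TOs and 167 and 199 CPM in testes. The groups did not overlap, and Lamc1 fell by 1.41 ± 0.24 on the log2 scale (adjusted p = 0.00363). The call was lost without TO replicate 1, testis replicate 1 or testis replicate 2, with log2 fold changes of -1.24 to -1.43. It was also lost with the background subtracted (-1.92, adjusted p = 0.134). After thinning, Lamc1 was found in 8.49% and 10.5% of TO stromal cells and in 20.6% and 24.7% of testis stromal cells, and without thinning in 20.5% and 37.7% against 29.1% and 40.5%.

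Sertoli cells showed the opposite order of Lamc1, with 59.5 and 57.5 CPM in TOs and 37.6 and 31.3 CPM in testes, and the log2 fold change of 0.79 ± 0.18 did not pass the test, being within the fold threshold (adjusted p = 0.0101). Without the Sertoli cells of few markers the testes had 47.6 and 48.6 CPM, and the log2 fold change was 0.42 (adjusted p = 0.0944). In myoid cells Lamc1 had 58.8 and 86.3 CPM in TOs and 98.5 and 113 CPM in testes (-0.52 ± 0.25, adjusted p = 0.145).

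Lamc3 codes for the γ3 chain, and was by UMIs the main γ chain gene of myoid and stromal cells. It had 412 and 437 CPM in TO myoid cells and 428 and 362 CPM in testis myoid cells, which overlapped (0.11 ± 0.23, adjusted p = 0.736). Stromal cells had 285 and 263 CPM in TOs and 323 and 272 CPM in testes, which overlapped too (-0.07 ± 0.24, adjusted p = 0.867). Of the γ chain UMIs, Lamc3 gave 82.8% and 78.2% in TO stromal cells and 65.9% and 57.7% in testis stromal cells. The level of Lamc3 was alike in the groups, and the lower share in testes went with the higher Lamc1. Sertoli cells had 3.55 and 2.29 Lamc3 CPM in TOs and 0.697 and 0.591 CPM in testes, where Lamc3 rests on 2 and 1 UMIs.

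Nid1 codes for nidogen 1, which links laminin to collagen IV. Sertoli cells had 14.96 and 17.1 CPM in TOs and 35.2 and 38.4 CPM in testes. The groups were apart, with a log2 fold change of -1.16 ± 0.23, but Nid1 was left out of the test because other cells held at least 5 times as much in a condition. With no gene left out it was called lower (adjusted p = 0.00397), and without the Sertoli cells of few markers the testis levels were 44.9 and 60.7 CPM and the log2 fold change -1.56. Nid1 had 191 and 284 CPM in TO myoid cells and 159 and 191 CPM in testis myoid cells (0.46 ± 0.27, adjusted p = 0.211). In stromal cells it had 240 and 295 CPM in TOs and 248 and 269 CPM in testes, which overlapped (0.11 ± 0.25, adjusted p = 0.785).

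Shares of α chain UMIs give the α chain gene from which most of them came. Sertoli cells took 90.4% and 85.0% of them from Lama1 in TOs and 96.3% and 96.3% in testes, with Lama2 giving 7.65% and 13.2% in TOs and 3.15% and 3.00% in testes. Myoid cells took 96.4% and 96.9% from Lama2 in TOs and 90.0% and 88.1% in testes. In the same cells Lama5 gave 0.166% and 0.197% in TOs and 4.90% and 4.10% in testes. Stromal cells took 93.8% and 94.1% from Lama2 in TOs and 89.2% and 88.3% in testes, and Lama4 gave 2.64% and 1.86% in TOs and 7.93% and 9.34% in testes. The order of the α chain genes by share was led by the same gene in TOs and testes in each of these 3 types, and each of the shares named lay apart between the groups. An exact permutation test of 2 against 2 libraries cannot give a two-sided p below 0.33, which each of these comparisons had.

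**Figure D4:**
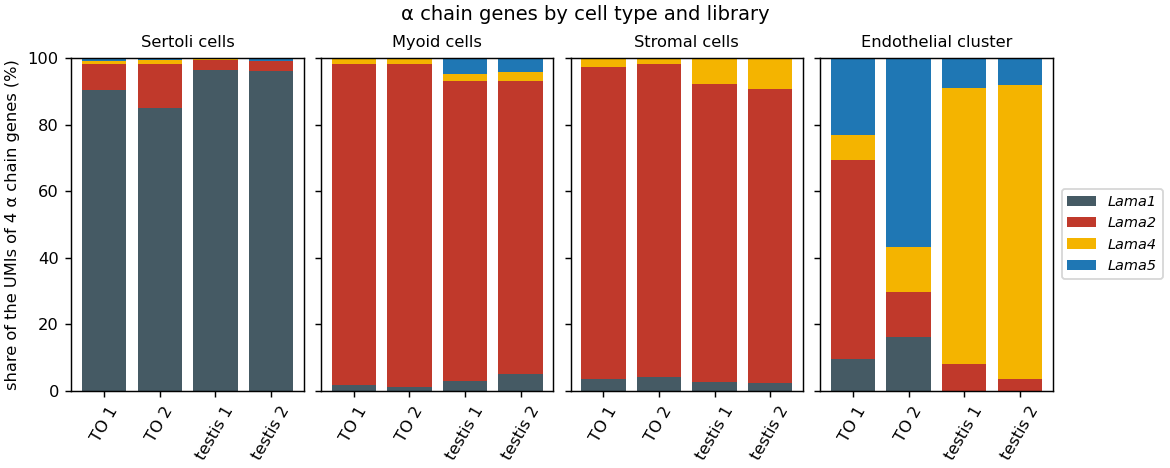
Percent of the UMIs of Lama1, Lama2, Lama4 and Lama5 that each gene gave, by library and cell type. Lama1 gave 85.0% to 96.3% in Sertoli cells, and Lama2 gave 88.1% to 96.9% in myoid and 88.3% to 94.1% in stromal cells.

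The difference of the TO effect between cell types was tested itself, as the interaction of condition and type with the library as a covariate. Genes were not left out here for their level in other cells. Lama5 and Nid1 thus entered, though neither was tested within Sertoli cells. Between stromal and myoid cells 5 members differed at an adjusted p below 0.01, as did 5.14% of 16957 genes. For Lama4 the log2 fold change was lower in stromal than in myoid cells by 2.51 ± 0.27 (adjusted p = 1.38e-06), and it was lower for Lama2 by 1.12 ± 0.18 (adjusted p = 0.000183). Lamb1, Lamb2 and Lamc1 also had lower values in stromal cells. Between myoid and Sertoli cells 3 members differed, Lamc1, Lama5 and Nid1, beside 9.29% of 17034 genes, and between stromal and Sertoli cells Lamc1 and Nid1, beside 4.01% of 16876 genes. The difference of Lamc1 between stromal and Sertoli cells was -1.88 ± 0.29 (adjusted p = 0.00366), the sign of its lower level in TO stromal cells and higher level in TO Sertoli cells.

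The cells that make up each type changed some of these differences. With the larger myoid cluster alone and the Sertoli cells of many markers, Lama4 and Lama2 still differed between stromal and myoid cells, by -3.02 (adjusted p = 2.58e-09) and -0.71 (adjusted p = 0.00554), as did Lamc1 (-1.36, adjusted p = 6.77e-07), whereas Lamb1 (adjusted p = 0.0639) and Lamb2 (adjusted p = 0.0123) no longer did. Lama1 was gained there, with a higher log2 fold change in stromal than in myoid cells by 1.498 (adjusted p = 0.000161) and than in Sertoli cells by 1.41 (adjusted p = 0.00431). Lamc3 was gained for myoid minus Sertoli cells (-3.76, adjusted p = 0.00833), but its testis Sertoli sums there held only 1 and 0 Lamc3 UMIs. Lamc1 still differed between stromal and Sertoli cells (-1.78, adjusted p = 0.000766) but not between myoid and Sertoli cells (-0.35, adjusted p = 0.464). Nid1 differed from Sertoli cells by 1.92 in myoid cells (adjusted p = 0.000154) and by 1.70 in stromal cells (adjusted p = 0.000766). Without testis replicate 2, no member differed between Sertoli cells and either of the other types, and without testis replicate 1 only Lamc1 did, against myoid cells.

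The cluster with the name of endothelial cells is given by its values alone, because its TO cells had 2 of the 8 endothelial markers, Kdr and Egfl7, in at least 10% of cells and its testis cells had all 8. Its testis cells, 133 and 88 in number, had 199 and 199 Lama4 CPM and took 82.9% and 88.2% of their α chain UMIs from Lama4. They had 21.3 and 18.4 Lama5 CPM, 106 and 178 Lamc1 CPM and 56.2 and 50.3 Nid1 CPM, and Lama1 was at 0 in both libraries. The TO cells of that cluster had 9.70 and 7.13 Lama4 CPM, 29.1 and 29.9 Lama5 CPM, 148 and 120 Lamc1 CPM and 4.85 and 1.43 Nid1 CPM. As the cells of the 2 conditions carried different markers, these values do not compare 1 cell type.

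The map of levels over 9 cell types sets the members in the whole of the data. Lama1 was also high in Leydig cells, the steroid-making cells of the interstitium, at 115 and 186 CPM in TOs and 64.3 and 36.2 CPM in testes. Lama4 had 91.7 and 126 CPM in TO Leydig cells and 30.6 and 31.8 CPM in those of testes, the opposite order to stromal cells. Leydig cells were not among the types tested. Lama5 was near 1 level in spermatogonia of every library, at 12.9 to 15.3 CPM, and Lamb3 was highest in testis spermatids.

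**Figure D5:**
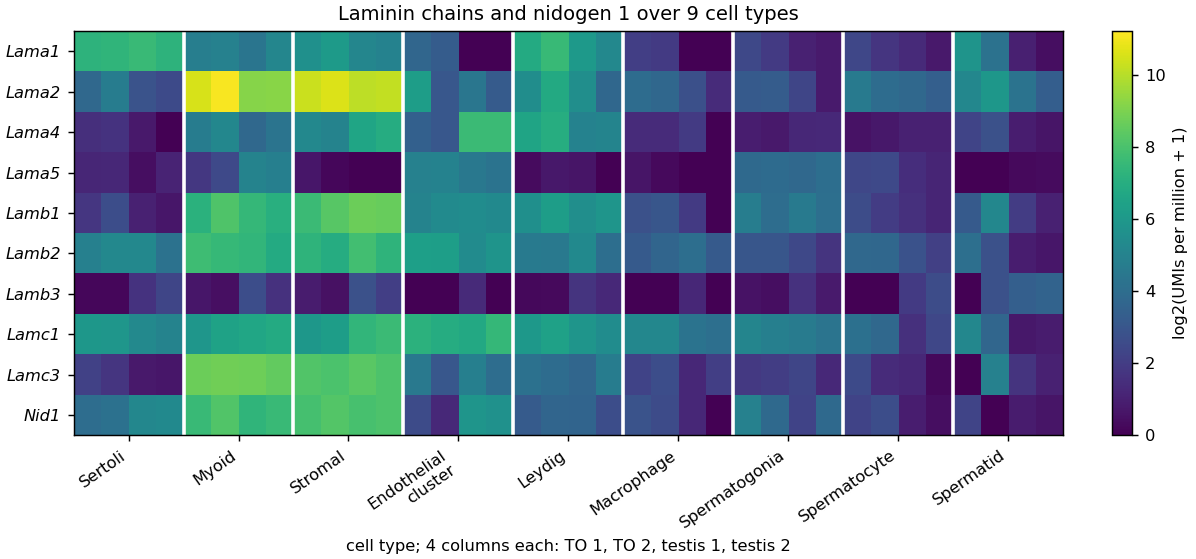
Log2(CPM + 1) of the 10 members in 9 cell types, with 4 columns per type in the order TO 1, TO 2, testis 1, testis 2. Lama2 is brightest in myoid and stromal cells, Lama1 in Sertoli and Leydig cells, and Lama4 in the testis columns of the endothelial cluster, at 199 and 199.

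Genes whose levels ran most like those of a member over the 36 sums of 9 cell types are given as a description. For Lama2 they were Col6a2, Prrx1 and Adamts5 (Pearson r of log2(CPM + 1) 0.95 each). Lama1 was most like Sobp, Gata4 and Obsl1 (0.94, 0.93 and 0.92), and Lama4 most like Htra1, Heg1 and Cav1 (0.91 each). For Lama5 they were Asap2, Gja4 and Prdm16 (0.82, 0.81 and 0.80). The sums of 1 library share its depth and its background RNA.

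Of 25 other basement membrane genes, 6 were tested in Sertoli cells, where 3 rose in TOs and 0 fell, beside 9.66% and 19.2% of all genes tested. These were Col4a6, a collagen IV chain, with a log2 fold change of 3.23 ± 0.44 (adjusted p = 0.000861), Sparc, a collagen-binding glycoprotein, with 2.05 ± 0.23, and Ntn4, a netrin that binds laminin, with 1.82 ± 0.20. All 3 were also called without the Sertoli cells of few markers and without each library in turn. In myoid cells 23 were tested, beside 4.08% of all genes higher and 16.7% lower, of which 1 rose, Col15a1 (3.55 ± 0.41), and 4 fell, Npnt (-4.35), Col18a1 (-2.69), Tinagl1 (-1.76) and Ntn4 (-1.25). Within the larger myoid cluster the log2 fold change was 2.17 for Col18a1, which was left out of the test, and 0.047 for Tinagl1. Ntn4 had -1.14 there, and Npnt did not pass the filter on low counts. In the larger myoid cluster only Col15a1 was called, without testis replicate 1 none was, and without testis replicate 2 only Col18a1. In stromal cells 21 were tested, beside 1.97% of all genes higher and 15.2% lower, of which Col4a6 (1.51) and Col4a5 (1.17) rose and Hmcn1 (-2.75) and Ntn4 (-1.46) fell. Of these, Hmcn1 was called without each library in turn, Col4a5 was lost without any 1 of them, Col4a6 without testis replicate 2, and Ntn4 without TO replicate 2 or testis replicate 2. Col4a5 and Ntn4 were also lost under RLE scaling. Ntn4 was thus called in the 3 types, higher in Sertoli cells and lower in myoid and stromal cells.

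Of 26 genes of laminin receptors and the dystroglycan pathway, 18 were tested in Sertoli cells, where 5 rose and 3 fell, beside 9.66% and 19.2% of all genes. Those that rose most were the syndecan Sdc4 (1.74), dystrophin Dmd (1.44) and the integrin chains Itgb1 (1.13) and Itga6 (1.04), and those that fell were Itga2 (-4.66), Sgcd (-2.69) and Pomt1 (-1.58). Without the Sertoli cells of few markers, 2 were called higher, Sdc4 and Dmd, and 1 lower, Sgcd. With each library left out in turn 3 to 5 were called higher and 1 to 2 lower, Sdc4, Itgb1, Dmd and Sgcd each time and Itga2 in none. In myoid cells 0 of 24 rose and 6 fell, beside 4.08% of all genes higher and 16.7% lower, among them Sgca (-5.45), the laminin α5 receptor Bcam (-2.41), Itga3 (-2.35) and utrophin Utrn (-1.65). The direction of Utrn was turned in the larger myoid cluster, with a log2 fold change of 1.03 that did not pass the test. Of these 6, 4 were called in the larger myoid cluster alone, and 0 without testis replicate 1 or 2. In stromal cells 0 of 22 rose and 1 fell, Sgca (-5.37), beside 1.97% and 15.2%. This call was lost without TO replicate 1, TO replicate 2 or testis replicate 1, and with no upper limits on genes and UMIs per cell. Sgca had 50.7 and 9.5 CPM in testis spermatids, above its level in any of these sums of the same library. The stromal call was also lost with genes left out from 2 times and with the background subtracted. In myoid and stromal cells Sgca passed the filter on low counts only through the testis libraries. These Sgca calls are therefore no separate evidence of a fall.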

How the data were processed

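Raw UMI counts per gene and barcode were deposited by the authors for 2 TO and 2 testis libraries made with 10x 3′ chemistry. The submitters' processing notes name Cell Ranger 7.1.0 and mm10. No doublet removal or normalization had been applied to these counts, and no column of another sample was present. The members and gene lists were chosen with earlier results of these data known.

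Scrublet scores (scanpy 1.11.5) were used to remove 0.8% of barcodes per 1000 (9.46% to 11.7%), in place of the DoubletFinder step that the study names. Barcodes passed with 1000 to 5000 genes, no more than 20000 UMIs and up to 10% of UMIs from mitochondria. Libraries were joined over 30 principal components of 2000 variable genes, without the members and gene lists, by a Harmony routine written for these data (theta 2, sigma 0.1, lambda 1), and clustered with leidenalg 0.10.2 (resolution 1). Clusters were named from fixed markers, of which at least 3 had to be found in at least 10% of cells.

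Raw counts were summed per library and type, and tested in edgeR 4.0.16 (R 4.3.3, TMM, filterByExpr, quasi-likelihood F test) after genes with at least 5 times the CPM in the other cells of a condition were left out. Cells were not treated as replicates. The SE given with a log2 fold change is its absolute value divided by the square root of the F statistic, since this test gives no SE itself. Self-tests on simulated counts were run first. All 10 members are named. Of each list, up to 4 called genes per direction with the largest fold change are named, and the 3 genes most like a member are taken among those of at least 50 CPM in a sum.

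Alternatives were DESeq2 1.42.0, RLE scaling, other filters, thresholds, clusterings and doublet settings, background subtraction, each library left out, and a replicate block. Tests within the smaller myoid cluster, without Sertoli cells of few markers, and of interactions in both, were added after the data were seen. Library depth was 74988295 to 119966959 UMIs. Gene positions came from GENCODE vM21 on GRCm38.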

Additional observations from a re-analysis of the deposited data

Results flagged for a closer look

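For 10 comparisons the TO effect on a member differed between cell types by the interaction test in edgeR, and they are listed here with the difference of log2 fold changes and its adjusted p. Myoid minus Sertoli cells gave -1.51 for Lamc1 (adjusted p = 0.00239), -4.33 for Lama5 (0.00124) and 1.42 for Nid1 (0.00240). Stromal minus Sertoli cells gave -1.88 for Lamc1 (0.00366) and 1.58 for Nid1 (0.00540). Stromal minus myoid cells gave -0.77 for Lamc1 (0.00190), -0.82 for Lamb2 (0.00112), -1.12 for Lama2 (0.000183), -2.51 for Lama4 (1.38e-06) and -0.93 for Lamb1 (0.000601). The myoid and Sertoli sums held different cells in TOs and testes, as the report gives. Lama5 and Nid1 were not tested within Sertoli cells, where Lama5 had 29 UMIs in TOs and 3 in testes. With the larger myoid cluster and the Sertoli cells of 6 or more markers, the Lama5 difference between myoid and Sertoli cells was 0.17.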

How the results depend on the processing

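With each library left out in turn, Lama4 in stromal cells was called each time and Lamb3 in Sertoli cells never. Lama2 and Lama5 in myoid cells were lost without either testis library, and Lamc1 in stromal cells was kept only without TO replicate 2. In Sertoli cells 1 member was called, and 2 with no gene left out or at an adjusted p below 0.05 without a fold threshold. In the same cells 0 were called with genes left out from 2 times, without Harmony, with doublets kept or with no upper cell limits. The same held with the lists among the variable genes, with the background subtracted or without the cells of few markers. In myoid cells 2 were called, 0 with the background subtracted or in the larger cluster, and 4 in the smaller cluster. In stromal cells 2 were called, and 0 with the background subtracted. Background subtraction took 9.11% to 54.4% of the testis sums, by a profile of all kept cells that includes somatic RNA. It left edgeR with 0 calls among all genes (4628, 2167 and 1841 genes at an unadjusted p below 0.05 in Sertoli, myoid and stromal cells). The cause of these losses was not tested.

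For the differences between types, 3 members in myoid minus Sertoli cells became 0 to 2 with each library left out, 2 in stromal minus Sertoli cells became 1 under RLE scaling and 0 to 3, and 5 in stromal minus myoid cells became 5 to 6. Of 507 alternative log2 fold changes 458 kept direction and side of the threshold, 14 lost and 9 gained the call, and 26 turned sign. Part of the 458 was fixed in advance. Settings of left-out genes and of thresholds do not change a log2 fold change, and the largest stromal cluster repeated the main test. With each library left out in turn, the values that turned ranged from -0.25 to 0.011 for Lama1 and -0.12 to 0.83 for Lamb2 in Sertoli cells, from -0.10 to 0.94 for Lamb1, -0.25 to 0.48 for Lama1 and -0.043 to 0.25 for Lamc3 in myoid cells, and from -0.11 to 0.27 for Nid1 and -0.20 to 0.16 for Lamc3 in stromal cells. With genes of any count, Lama1 in Sertoli cells had 0.057 and Lamc3 in stromal cells 0.14. Without Harmony, Lamb2 in Sertoli cells had -0.075, Lama1 in myoid cells -0.24 and Lamc3 in stromal cells 0.077, and with no upper limits the last had 0.0050. Without the cells of few markers Lamb2 in Sertoli cells had -0.044. Background subtraction gave Lamc3 -0.59, Lamb2 -0.20, Lamb1 -0.20, Nid1 -0.15 and Lama1 -0.026 in myoid cells, and Lama2 -0.14 and Nid1 -0.45 in stromal cells. The larger myoid cluster gave Lamc1 0.079, Lamc3 -0.38, Lama5 1.34 and Lama1 -0.51, and the smaller one Lamb2 -0.71. Of these only Lama5 had been called. The Lama5 difference of myoid minus Sertoli cells turned to 0.17 with the larger myoid cluster and the Sertoli cells of 6 or more markers.

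In shares of α chain UMIs (TO minus testis, percentage points), 57 of 60 values moved by less than 1 SD, and the others were Lama4 in Sertoli cells at 1.17 with doublets kept and, without Harmony, Lama2 at 5.67 and Lama5 at 0.0528 in stromal cells. The endothelial cluster gave no test under any setting, and without Harmony it held 0 TO cells. The replicate numbers are only numbers in the labels. Deviations of same-numbered libraries had correlations of 0.0536, 0.163 and 0.173 in Sertoli, myoid and stromal cells, and a replicate block gave 1, 3 and 3 called members, adding Lamb3 in myoid (-2.85, adjusted p = 0.00790) and stromal cells (-2.84, adjusted p = 0.00233).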

Other observations

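Leydig cells were outside the comparisons. Lama1 had 115 and 186 CPM in TO Leydig cells and 64.3 and 36.2 CPM in testis Leydig cells, and Lama4 had 91.7 and 126 CPM against 30.6 and 31.8 CPM. For each of these genes the TO and testis libraries did not overlap. Lamc1 had 61.0 and 84.3 CPM in TOs and 56.7 and 42.9 CPM in testes, again without overlap. Lama2 had 44.0 and 109 CPM against 44.9 and 12.2 CPM, and the groups overlapped. None of these values was tested.

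Spermatogonia, which sit on the tubule's basement membrane, had Lamb1 at 25.8 and 14.9 CPM in TOs and 23.8 and 16.1 CPM in testes, and Lamc1 at 33.1 and 27.4 CPM against 24.5 and 19.0 CPM. Lama5 had 13.0 and 13.9 CPM in TOs and 12.9 and 15.3 CPM in testes. It was the α chain gene with the most UMIs in spermatogonia of every library, with 59, 40, 38 and 21 UMIs. Nid1 ranged from 3.75 CPM in testis 1 to 29.4 CPM in TO 1.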
